A study of Mus musculus with 6 samples.

Results

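One library of mouse bone marrow-derived macrophages given IL4 together with 1,10-Phen was set against 1 library given IL4 alone. These are 2 of the 6 libraries of the series, chosen by their treatment labels. Of 16775 genes listed in the files, 11898 reached 1 CPM (counts per library total, scaled so that each total is the same) in at least 1 of the 6 libraries and were compared. Both libraries came from C57BL/6 mice. Marrow cells spent 5 days in medium with 10% FBS and 10 ng/ml M-CSF, under which precursors become macrophages, and were then treated for 24 hours. The other 4 libraries received IL4 with fatostatin, betulin, 25-HC or PF429424, so all 6 cultures had IL4 and there was no culture without it. The series' title concerns SREBP2, the transcription factor that governs cholesterol synthesis, in the alternative activation of macrophages. The labels give no dose, no target and no expansion for 1,10-Phen, and name no vehicle for the IL4 culture. 1,10-phenanthroline, a chelator of metal ions, is often written this way, but the labels do not say that this is the compound.

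IL4 acts through its receptor and STAT6 to give macrophages a program called alternative activation, with arginase, chitinase-like proteins, resistin-like proteins and chemokines among its products. Several of the gene groups described here answer to other sensors. Prolyl hydroxylases use oxygen, iron and 2-oxoglutarate to mark the hypoxia-inducible factors (HIF) for destruction, and when these enzymes stop working HIF turns on genes of glucose uptake, glycolysis, mitophagy and vessel growth. NRF2 turns on glutathione and haem-degrading enzymes under oxidative or electrophilic stress, and ATF4 turns on amino acid supply genes when protein synthesis is restrained. E2F factors drive the genes of DNA synthesis, and macrophages grown from marrow with M-CSF are known to keep dividing in culture.

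Each value below rests on 1 library a side, so nothing here could be tested against the spread between cultures. Library totals were 20181396 counts with IL4 and 20742358 with 1,10-Phen, and 20181396 to 21169667 over all 6. A ratio is the log2 of the scaled counts with 1,10-Phen over those with IL4, with a prior count of 2. Its 95% interval (exact Clopper-Pearson, from the counts) covers counting error only, not the spread between cultures. A gene is called higher or lower here when it differed at least 2-fold and its interval left out 0. A gene that reached 1 CPM only with 1,10-Phen could lie only on the higher side. In bulk RNA, fewer cells of a kind and less RNA per cell cannot be told apart. All 11 macrophage markers were above 1 CPM in both libraries, and their summed level was 11782 CPM with IL4, 8003 to 12429 with the other 4 compounds and 8321 with 1,10-Phen. The summed markers of T cells, B cells, NK cells, mast cells and erythroid cells were each below 10 CPM in both libraries. Those of stromal cells summed to 105 CPM with IL4, 41.2 to 86.3 with the other 4 compounds and 105 with 1,10-Phen, nearly all of it from the collagen genes Col1a1 and Col1a2, and none of the 8 was called. The mast cell gene Cpa3, the erythroid gene Hbb-bs and the stromal gene Lum had no count in either library.

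With 1,10-Phen, 903 of the 11898 genes were called higher (7.59%) and 1408 were called lower (11.8%). Every count of called genes in a list below is to be read beside these shares. The genes of the HIF, glycolysis, NRF2 and ATF4 lists lay mainly on the higher side, and those of DNA replication and mitosis lay mainly on the lower side, while those of antigen presentation and complement were called lower more often than higher. At 4-fold the counts were 268 higher and 501 lower, at 8-fold 96 and 188, and at 32-fold 19 and 36. The genes called higher held 7.64% of all counts with IL4, 8.25 to 10.5% with the other 4 compounds and 22.3% with 1,10-Phen. The genes called lower held 8.51% with IL4, 5.69 to 7.71% with the other 4 and 2.31% with 1,10-Phen. These genes were chosen on the same 2 libraries, which fixes the direction of both shares between IL4 and 1,10-Phen. Scaling by library totals in place of the TMM method placed the median gene at -0.25 on the log2 scale and gave 641 higher and 1940 lower. Higher genes then made up 24.8% of the calls in place of 39.1%, so all changes are read here relative to the median gene of the TMM scaling, at -0.015.

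The library also stood apart from the other 5. In 423 genes (3.56%) it was at least 2-fold above the highest of the other 5 libraries, and in 636 genes (5.35%) at least 2-fold below the lowest. Each of the others held such a position in 5 to 29 genes above and 9 to 54 below. With 1 library a treatment, what belongs to the compound and what belongs to that culture cannot be told apart.

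**Figure D1:**
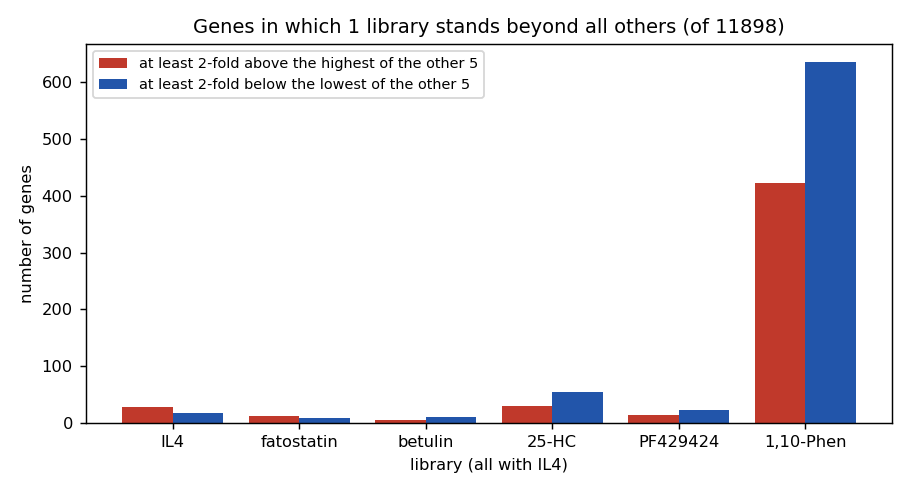
Number of genes (vertical axis) in which a library lay at least 2-fold above the highest (red) or below the lowest (blue) of the other 5 libraries, for each of the 6 libraries (horizontal axis), out of 11898 genes. The 1,10-Phen library holds 423 and 636 genes, and no other library more than 29 above and 54 below.

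The promoters of 10 genes are shown because the results turn on these gene groups and because the letters let a reader see where the core motif of each group's factor lies. Each is the 250 bases before a RefSeq start of the gene in build GRCm38.p6, 5′ to 3′ on the gene's strand, in lower case with the motif in capitals. This need not be the outermost start, and the windows of Ak4, Ankrd37 and Cdc6 lie inside the span of the gene. Where a gene had several windows, as Ak4 with 4, a window that holds the motif is shown. For the HIF target list, capitals mark the core of the hypoxia response element, ACGTG or GCGTG on either strand (CACGT and CACGC where it lies on the other). The genes are Egln3 (chr12:54203875-54204124, minus strand), Ero1l (chr14:45318573-45318822, minus strand), Bnip3 (chr7:138909507-138909756, minus strand), Ak4 (chr4:101419039-101419288, plus strand), P4ha2 (chr11:54100674-54100923, plus strand) and Ankrd37 (chr8:45999851-46000100, minus strand), the listed targets with the core in this window and the largest ratios among those expressed at 5 CPM or more.
Egln3: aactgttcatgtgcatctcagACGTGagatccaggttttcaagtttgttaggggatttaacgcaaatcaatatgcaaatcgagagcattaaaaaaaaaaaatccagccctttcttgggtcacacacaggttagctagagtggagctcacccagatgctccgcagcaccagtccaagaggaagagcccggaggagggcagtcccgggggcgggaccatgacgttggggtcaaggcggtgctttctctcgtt
Ero1l: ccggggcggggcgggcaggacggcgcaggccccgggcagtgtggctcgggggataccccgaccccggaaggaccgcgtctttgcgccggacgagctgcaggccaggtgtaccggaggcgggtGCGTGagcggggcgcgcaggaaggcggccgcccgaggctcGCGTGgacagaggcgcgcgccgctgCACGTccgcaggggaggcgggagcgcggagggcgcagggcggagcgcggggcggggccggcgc
Bnip3: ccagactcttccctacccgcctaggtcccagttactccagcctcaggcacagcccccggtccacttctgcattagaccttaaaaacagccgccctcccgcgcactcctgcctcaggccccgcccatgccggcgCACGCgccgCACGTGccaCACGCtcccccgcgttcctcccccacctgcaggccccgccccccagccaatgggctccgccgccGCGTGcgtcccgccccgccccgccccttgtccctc
Ak4: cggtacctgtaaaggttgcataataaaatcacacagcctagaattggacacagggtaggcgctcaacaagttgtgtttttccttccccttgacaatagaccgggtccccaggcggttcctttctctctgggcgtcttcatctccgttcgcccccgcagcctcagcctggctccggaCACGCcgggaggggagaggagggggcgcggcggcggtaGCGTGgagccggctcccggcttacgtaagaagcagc
P4ha2: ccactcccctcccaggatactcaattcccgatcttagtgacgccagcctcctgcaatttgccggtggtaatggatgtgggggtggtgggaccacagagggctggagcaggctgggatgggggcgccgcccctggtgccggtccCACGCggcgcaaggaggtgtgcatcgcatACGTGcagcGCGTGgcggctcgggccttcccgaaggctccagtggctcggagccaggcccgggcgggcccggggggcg
Ankrd37: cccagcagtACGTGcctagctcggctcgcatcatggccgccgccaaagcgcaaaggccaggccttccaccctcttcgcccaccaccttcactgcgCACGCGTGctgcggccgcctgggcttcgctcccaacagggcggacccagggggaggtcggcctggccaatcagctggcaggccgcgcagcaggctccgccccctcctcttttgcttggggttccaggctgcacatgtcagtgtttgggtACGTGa
For DNA replication, capitals mark an E2F site (TTTCGCGC, TTTGGCGC, TTTCCCGC or TTTGCCGC, either strand) in Cdc6 (chr11:98907901-98908150, plus strand) and Mcm5 (chr8:75109259-75109508, plus strand).
Cdc6: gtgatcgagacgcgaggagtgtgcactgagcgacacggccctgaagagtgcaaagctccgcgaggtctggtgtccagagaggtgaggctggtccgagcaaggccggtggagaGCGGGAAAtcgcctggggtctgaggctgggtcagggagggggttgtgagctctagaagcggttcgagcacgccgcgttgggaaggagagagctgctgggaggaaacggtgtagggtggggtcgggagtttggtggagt
Mcm5: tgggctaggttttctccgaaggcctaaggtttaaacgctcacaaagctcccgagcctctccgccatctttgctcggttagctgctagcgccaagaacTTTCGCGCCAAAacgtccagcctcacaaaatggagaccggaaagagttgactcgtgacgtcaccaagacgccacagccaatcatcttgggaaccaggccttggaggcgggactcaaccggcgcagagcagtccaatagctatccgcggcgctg
For the ATF4 list capitals mark TGATGNAA, the core of the composite C/EBP and ATF element, in Chac1 (chr2:119350992-119351241, plus strand), and for the NRF2 list TGACNNNGC, the antioxidant response core, in Gclm (chr3:122245307-122245556, plus strand), both on either strand. Cdc6, Mcm5, Chac1 and Gclm were also chosen among called members that hold the motif in this window. Members with larger ratios but no match there, such as Trib3 for ATF4 and Slc7a11 for NRF2, are not shown.
Chac1: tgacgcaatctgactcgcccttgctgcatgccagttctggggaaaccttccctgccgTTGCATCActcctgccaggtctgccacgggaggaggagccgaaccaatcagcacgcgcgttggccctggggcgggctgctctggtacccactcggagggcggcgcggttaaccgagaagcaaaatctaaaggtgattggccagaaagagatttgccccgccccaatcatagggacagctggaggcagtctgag
Gclm: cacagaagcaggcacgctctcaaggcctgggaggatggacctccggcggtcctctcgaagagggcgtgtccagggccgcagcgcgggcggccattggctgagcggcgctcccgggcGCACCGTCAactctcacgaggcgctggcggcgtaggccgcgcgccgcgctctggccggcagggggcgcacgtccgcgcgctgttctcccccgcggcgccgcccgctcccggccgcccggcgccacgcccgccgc

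A match is a description of letters and says nothing of binding. Windows of 300 bases, with 50 bases after the start, were found for 9574 of the 11898 genes. The hypoxia core was in the windows of 32 of 35 HIF targets (91.4%), of 67.5% of all compared genes and of 68% of the genes called higher. The glycolysis list had it in 85.7% and the ATF4 list in 80% of genes. A gene counted if any of its windows matched. Per window the shares were 77.6% for HIF targets and 61.5% for all compared genes. This short core is thus in most windows, and the share among the genes called higher was near the background share. The E2F sites were in the windows of 20 of 45 replication genes (44.4%), of 11.3% of mitotic genes and of 4.75% of all. The ATF4 core was in 10 of 30 genes of the ATF4 list against 2.88% of all, and the antioxidant core in 12 of 31 of the NRF2 list against 17.1%.

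Among the oxygen sensors, Egln3, a prolyl hydroxylase that is itself a HIF target, had the highest ratio of all genes eligible for ranking. It stood at 1.16 CPM with IL4, 1.6 with fatostatin, 1.83 with betulin, 1.96 with 25-HC, 8.02 with PF429424 and 618 with 1,10-Phen (log2 ratio 8.94, counting interval 8.49 to 9.68). The other 5 libraries held at most 8.02 CPM, all below the 1,10-Phen value. Egln1, the main prolyl hydroxylase of most cells, stood at 50.2 CPM with IL4, 48.6 with fatostatin, 57.6 with betulin, 58.5 with 25-HC, 63.6 with PF429424 and 371 with 1,10-Phen (log2 ratio 2.88), again with the 1,10-Phen library alone above a narrow range. Egln2, the third enzyme of the family, differed little, with 40.9 CPM with IL4, 38.98 to 44.4 with the other 4 compounds and 50.7 with 1,10-Phen. Hif1a, which encodes the HIF-1 alpha subunit, was lower at the level of its mRNA, with 135 CPM with IL4, 119.6 to 150.0 with the other 4 compounds and 62.2 with 1,10-Phen (log2 ratio -1.11). The protein, which is where the hydroxylases act, was not measured. Epas1, encoding HIF-2 alpha, had 28.4 against 25.6 CPM and Vhl, the ubiquitin ligase subunit that recognises hydroxylated HIF, 37.95 against 44.3 CPM. Cited2, an inhibitor of the HIF coactivators, was higher (log2 ratio 1.42), as were the ubiquitin ligase genes Siah2 (1.17) and Siah1a (1.37), which degrade prolyl hydroxylases. In all, 6 of 12 compared genes of HIF factors and oxygen sensors were called higher and 1 lower. Of these, Arnt2 reached 1 CPM only with 1,10-Phen (1.71 CPM, at most 0.516 elsewhere), so it could lie only on the higher side. With a limit of 5 CPM, 5 of 11 were higher and 1 lower.

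Of the HIF target list, 45 of 50 genes were compared, 36 were called higher and 0 lower, with a median log2 ratio of 2.88 beside -0.015 over all genes. In 30 of them the 1,10-Phen library lay at least 2-fold above the other 5. Together they took 0.206% of counts with IL4, 0.223 to 0.283% with the other 4 compounds and 1.25% with 1,10-Phen. The list shares some genes with the glycolysis, ATF4 and oxygen sensor lists, so the counts of these lists are not separate evidence. Some members, such as Car12 (1.66 CPM, at most 0.235 elsewhere), reached 1 CPM only with 1,10-Phen and could lie only on the higher side. With a limit of 5 CPM, 32 of 41 were higher and 0 lower, but Adm passed that limit too only with 1,10-Phen.

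Ero1l, an oxidase that makes disulphide bonds in the endoplasmic reticulum, stood at 102 CPM with IL4, 105 with fatostatin, 101 with betulin, 127 with 25-HC, 191 with PF429424 and 3500.0 with 1,10-Phen (log2 ratio 5.104, counting interval 5.04 to 5.17). Bnip3, which marks mitochondria for autophagy, stood at 15.9 CPM with IL4, 17.4 with fatostatin, 17.6 with betulin, 16.4 with 25-HC, 17.7 with PF429424 and 493 with 1,10-Phen (log2 ratio 4.94, counting interval 4.79 to 5.11). In both genes the other 5 libraries lay within 2-fold of each other. Ak4, a mitochondrial adenylate kinase, had 10.5 CPM with IL4, 11.5 to 19.6 with the other 4 compounds and 266 with 1,10-Phen (log2 ratio 4.65), and Ndrg1, a stress-responsive growth regulator, 19.7 CPM with IL4, 13.6 to 34.7 with the other 4 compounds and 346 with 1,10-Phen (log2 ratio 4.13). Ndufa4l2, which replaces a subunit of the respiratory chain under low oxygen, had no count with IL4 and 71 with 1,10-Phen, at least 27.2-fold higher when 3 counts are taken as the limit of detection in the IL4 library. Stc2, a secreted glycoprotein, had 2 counts with IL4 and 33 with 1,10-Phen (log2 ratio 3.3, counting interval 2.28 to 7.35). Fam162a, a mitochondrial protein, had a log2 ratio of 3.05, and Ankrd37, an ankyrin repeat protein, 3.902.

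The secreted products of the HIF list included Vegfa, the main vessel growth factor, at 46.3 CPM with IL4, 103 with fatostatin, 62.7 with betulin, 164 with 25-HC, 75.7 with PF429424 and 343 with 1,10-Phen (log2 ratio 2.89). Vegfa was higher than in the IL4 library with each of the other compounds too, and highest with 1,10-Phen. Adm, the vasodilator peptide adrenomedullin, had 0.838 CPM with IL4, 0.501 to 1.27 with the other 4 compounds and 12.5 with 1,10-Phen (log2 ratio 3.75). Mif, a cytokine that holds macrophages at a site, had 114 CPM with IL4, 130.5 to 169 with the other 4 compounds and 679 with 1,10-Phen (log2 ratio 2.58). Outside the HIF list, Apln, the peptide apelin, was among the 20 highest ratios, with 5 counts with IL4 and 191 with 1,10-Phen (log2 ratio 4.97). Pgf, a relative of Vegfa, was close to 1 CPM in both (0.699 against 1.77 CPM). Growth and angiogenic factors went both ways, since the growth factor gene Hbegf (1.66) and Nrp1, a coreceptor for VEGF (1.29), were higher, while Edn1 (endothelin, log2 ratio -2.26), Pdgfb (-1.94), Pdgfa (-1.54), Hgf (-1.51) and Thbs1 (-1.11) were lower. Of 29 such genes, 5 were higher and 5 lower (17.2% each, beside 7.59% higher and 11.8% lower over all compared genes). Summed markers of endothelial cells stood at 30.5 CPM with IL4, 14.2 to 42.6 with the other 4 and 73.2 with 1,10-Phen. Pecam1, which macrophages also express, made up most of that sum and was called higher. Of the defining genes of that cell type, Cdh5 had 9 counts with IL4 and 22 with 1,10-Phen and was called higher (1.31), Kdr had 99 and 62, and Tek had 1 in each. Their part in the result was not tested.

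Not every HIF target was called. Among the compared targets 9 were not called, such as Car9, a carbonic anhydrase, at 7.36 CPM with IL4, 6.56 to 9.08 with the other 4 compounds and 6.16 with 1,10-Phen, Angptl4, a lipase inhibitor, at 7.31 CPM with IL4, 6.61 to 11.2 with the other 4 compounds and 10.98 with 1,10-Phen, and Pfkfb4, which sets a glycolytic regulator, at 66.1 CPM with IL4, 48.5 to 64.7 with the other 4 compounds and 85.9 with 1,10-Phen. Bhlhe41, a repressor of clock genes, was higher than with IL4 alone (21.8 against 73.6 CPM) but inside the range of the other 4 compounds, 39.2 to 89.6 CPM, so its place depends on the reference.

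**Figure D2:**
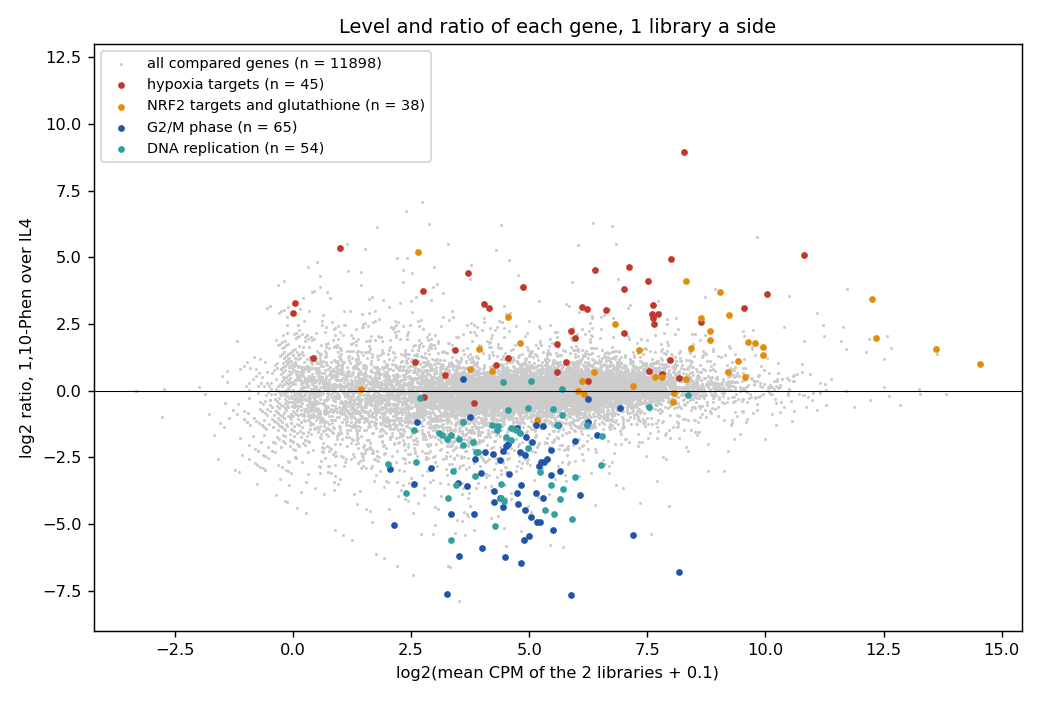
Level (horizontal axis, log2 of the mean CPM of the 2 libraries plus 0.1) against log2 ratio of 1,10-Phen over IL4 (vertical axis) for 11898 genes (grey), with 4 gene lists in colour. HIF targets (red) reach a ratio of 8.94 in Egln3, and mitotic genes (blue) reach -7.66 in Ccna2.

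Glycolysis was higher from glucose entry to lactate export. Slc2a1, the glucose transporter GLUT1, stood at 155 CPM with IL4, 173 with fatostatin, 217 with betulin, 279 with 25-HC, 261 with PF429424 and 1926 with 1,10-Phen (log2 ratio 3.63, counting interval 3.58 to 3.69). Slc16a3, the transporter that exports lactate, stood at 65.2 CPM with IL4, 61.8 with fatostatin, 85.3 with betulin, 99.6 with 25-HC, 86.99 with PF429424 and 914 with 1,10-Phen (log2 ratio 3.81, counting interval 3.73 to 3.89). Between these ends, every step from hexokinase to lactate dehydrogenase had at least 1 gene called higher. Hk1 and Hk2, which trap glucose as its phosphate, had log2 ratios of 2.32 and 2.098, and Gpi1, the isomerase, 2.45. Pfkl and Pfkp, subunits of the enzyme that commits sugar to the pathway, had 2.503 and 2.08, and Pfkfb3, which makes its activator, 3.21. The later steps of the pathway, Aldoa (1.86), Tpi1 (2.04), Gapdh (2.04), Pgk1 (2.92), Pgam1 (1.86), Eno1 (2.405), Pkm (1.95) and Ldha (2.04), lay between 1.86 and 2.92. Gapdh was among the 10 most abundant mRNAs per length with 1,10-Phen, at 6636 FPKM against 1907 with IL4.

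Within some steps the isoforms differed. Ldhb, the lactate dehydrogenase subunit that favours pyruvate formation, was lower while Ldha was higher, with 13.7 CPM with IL4, 6.28 to 17.4 with the other 4 compounds and 2.09 with 1,10-Phen for Ldhb (log2 ratio -2.66). Slc2a6, a glucose transporter of macrophages, was lower (26.96 CPM with IL4, 15.5 to 25.8 with the other 4 compounds and 3.696 with 1,10-Phen, log2 ratio -2.83). Hk3, the hexokinase of myeloid cells, had 0.502, Pfkm -0.15 and Slc16a1 -0.07, none of them called. Of 29 glycolysis genes, 18 were higher and 3 lower, with a median of 1.95, and 17 lay at least 2-fold above the other 5 libraries. The list took 1.19% of counts with IL4, 1.21 to 1.39% with the other 4 compounds and 4.42% with 1,10-Phen.

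**Figure D3:**
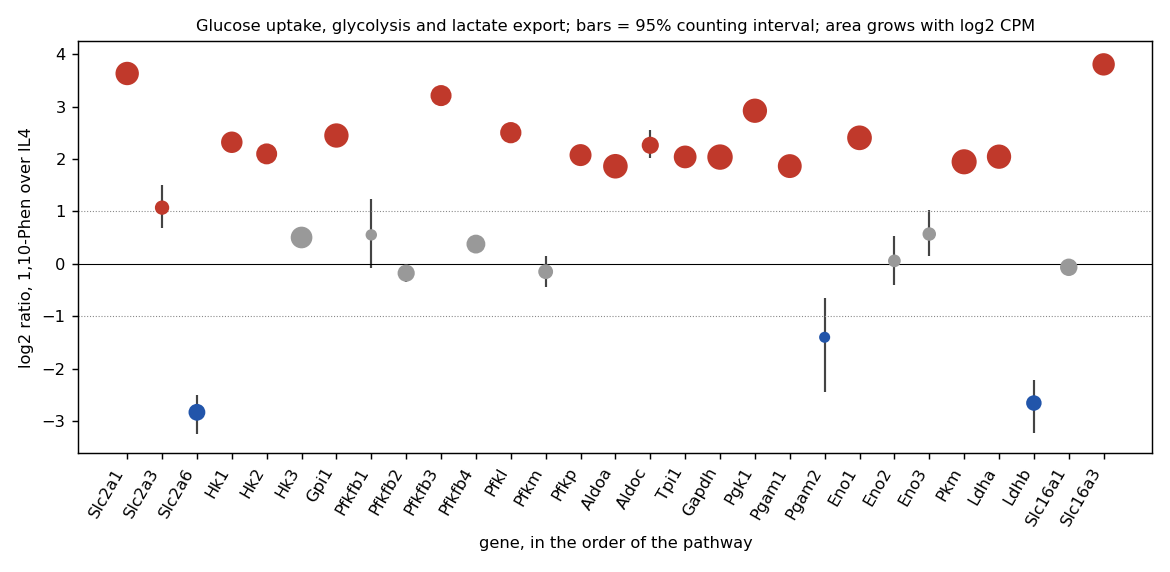
Log2 ratio of 1,10-Phen over IL4 (vertical axis) for the 29 genes of glucose uptake, glycolysis and lactate export in pathway order (horizontal axis); lines are 95% counting intervals, red and blue are genes called higher and lower, dotted lines mark 2-fold, and point area grows with log2 CPM. The ratios run from -2.83 in Slc2a6 to 3.81 in Slc16a3, with most enzymes near 2.

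Of 18 glycogen genes 6 were called higher and 0 lower, with a median of 0.13, or -0.109 when scaled by library totals. Gbe1, the branching enzyme, had 16.8 CPM with IL4, 16.6 to 21.1 with the other 4 compounds and 239 with 1,10-Phen (log2 ratio 3.82). Gys1, glycogen synthase, had 27.01 CPM with IL4, 29.5 to 40.9 with the other 4 compounds and 254 with 1,10-Phen (log2 ratio 3.23), Pgm2, a phosphoglucomutase, 3.36 and Ugp2, which makes the sugar donor, 1.76. Pygl, the phosphorylase that releases glucose units, had 0.29 and Pygb -0.76, neither called, while Pygm, their muscle form, was called on low levels (0.466 against 2.04 CPM). Ppp1r3b, which brings a phosphatase to glycogen, was higher (2.33).

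Of 36 genes of pyruvate entry and the citric acid cycle, 3 were called higher and 4 lower, shares near those of all genes. Pdk1, the kinase that keeps pyruvate out of the mitochondrial cycle, was higher, with 46.99 CPM with IL4, 47.95 to 57.97 with the other 4 compounds and 209 with 1,10-Phen (log2 ratio 2.15), as were Pcx, pyruvate carboxylase (1.04), and Acod1, which makes itaconate, on low levels (0.978 against 2.09 CPM). The 4 lower genes of the pyruvate and citric acid cycle list were Idh2 (-1.22), Fh1 (-1.15), Mdh1 (-1.104) and the kinase Pdk3 (-1.13). No nuclear gene of respiratory complex I was called higher and 1 of 36 was called lower, with a median of -0.29. For complexes II to V the counts were 0 and 0 of 39, with a median of -0.299. In the mitophagy and autophagy list, Bnip3l (1.17), the adaptor Sqstm1 at 438 CPM with IL4, 425 to 1129 with the other 4 compounds and 2269 with 1,10-Phen (2.37) and Map1lc3a (1.597) joined Bnip3, and the other 26 of 30 were not called.

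Most other enzymes that use iron and 2-oxoglutarate, the cofactors of the prolyl hydroxylases, were not called, but the share called higher exceeded that of all genes. Among the collagen and RNA hydroxylases and related oxygenases 7 of 27 were called higher (25.9%) and 0 lower. Among the histone and DNA demethylases 4 of 23 were called higher (17.4%) and 1 lower (4.35%). Over all compared genes the shares were 7.59% higher and 11.8% lower. The collagen hydroxylase genes P4ha1, at 154 CPM with IL4, 165 with fatostatin, 161 with betulin, 198 with 25-HC, 216 with PF429424 and 1338 with 1,10-Phen (log2 ratio 3.11), P4ha2 at 6.85 CPM with IL4, 4.8 to 10.97 with the other 4 compounds and 160.3 with 1,10-Phen (4.53) and Plod2 (3.24) were higher, while Plod1 was not called (0.64). Alkbh5, which removes a methyl mark from RNA, had a ratio of 2.13, Jmjd6 1.97 and Asph, an aspartyl hydroxylase, 1.896. Among the histone and DNA demethylases, Kdm3a (2.49), Kdm5b (1.96), Kdm4b (1.53) and Kdm2a (1.05) were higher and Kdm2b (-1.13) lower.

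Iron genes went both ways. The transferrin receptor Tfrc, which brings iron in, stood at 571 CPM with IL4, 729 with fatostatin, 344 with betulin, 116 with 25-HC, 261 with PF429424 and 197 with 1,10-Phen (log2 ratio -1.54, counting interval -1.59 to -1.48). It was lower than with IL4 alone, but 1 other library was lower still. Fth1, the ferritin heavy chain that stores iron, stood at 6350.1 CPM with IL4, 7081 with fatostatin, 8089 with betulin, 7039 with 25-HC, 11182 with PF429424 and 18540.1 with 1,10-Phen (log2 ratio 1.55, counting interval 1.54 to 1.55), and the light chain Ftl1 was the most abundant mRNA per length in both libraries, 17808 FPKM with IL4 and 29929 with 1,10-Phen. Fth1 was highest with 1,10-Phen of the 6. Iron regulatory proteins control both genes after transcription, through mRNA stability for Tfrc and translation for ferritin. Fbxl5, the iron-sensing ligase subunit that degrades one of those proteins, was higher (1.68), as was Slc11a1, a phagosomal metal transporter (1.11). Slc40a1, the iron exporter ferroportin, had 181 CPM with IL4, 31.4 to 91.1 with the other 4 compounds and 361 with 1,10-Phen (log2 ratio 1.001) and lay at the 2-fold threshold. Cd163, the haemoglobin receptor, was lower (-3.42), as was Hfe (-2.19), a regulator of iron uptake. Of 30 iron genes 7 were higher and 4 lower, with a median of -0.16. Hmox1, which opens the haem ring and frees its iron, led the higher ones and belongs to the NRF2 list as well.

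Metallothioneins, small proteins that bind zinc and copper, were higher. Mt2 stood at 1.96 CPM with IL4, 8.8 with fatostatin, 162 with betulin, 1.82 with 25-HC, 6.104 with PF429424 and 161 with 1,10-Phen (log2 ratio 6.29, counting interval 5.92 to 6.83). Mt1 stood at 72.7 CPM with IL4, 102 with fatostatin, 483 with betulin, 37.4 with 25-HC, 72.96 with PF429424 and 479 with 1,10-Phen (log2 ratio 2.72). The betulin library held both at about the same level, and the remaining libraries lay lower. Slc30a1, the zinc exporter at the cell surface, had 52.3 CPM with IL4, 50.7 to 137 with the other 4 compounds and 164 with 1,10-Phen (log2 ratio 1.65). Mt3 was called on levels near 1 CPM (0.699 against 1.66 CPM), and the other 16 of 20 zinc genes were not called. Atp7a, which pumps copper out, was higher (1.44), and Slc31a1, the copper importer, was lower, at the 2-fold threshold (77.5 against 38.6 CPM).

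NRF2 targets and glutathione genes were higher in 21 of 38 compared genes and lower in 1, with a median of 1.43, and 18 lay at least 2-fold above the other 5 libraries. Hmox1, haem oxygenase, stood at 837 CPM with IL4, 1204 with fatostatin, 1327 with betulin, 1122 with 25-HC, 961 with PF429424 and 8995 with 1,10-Phen (log2 ratio 3.43, counting interval 3.404 to 3.45). Prdx6, a peroxidase of membrane lipids, stood at 75.8 CPM with IL4, 76.7 with fatostatin, 87.97 with betulin, 70.9 with 25-HC, 91.3 with PF429424 and 975 with 1,10-Phen (log2 ratio 3.68, counting interval 3.61 to 3.76). The other 5 libraries lay close together in both. Gclm and Gclc, the subunits of the enzyme that starts glutathione synthesis, had log2 ratios of 2.82 and 2.71, and Gclm stood at 149 CPM with IL4, 89.1 to 119 with the other 4 compounds and 1055 with 1,10-Phen. Slc7a11, which imports cystine for glutathione, had 34.7 CPM with IL4, 30.96 to 65.7 with the other 4 compounds and 604 with 1,10-Phen (log2 ratio 4.12). Srxn1 (2.22), Prdx1 (1.97), Txnrd1 (1.82) and Cat (1.79), which reduce peroxides and their products, were higher too, and Nqo1, a quinone reductase, had 7.59 CPM with IL4, 1.6 to 5.44 with the other 4 compounds and 22.9 with 1,10-Phen (1.58). Nfe2l2, the gene of NRF2 itself, was not called (-0.42), nor was its inhibitor Keap1 (0.35). The superoxide dismutases Sod1 (-0.12) and Sod2 (-0.01) were not called, and Ephx1, an epoxide hydrolase, was lower (-1.08). The glutathione transferases Gsta3 (10 against 778 counts, log2 ratio 6.22) and Gsta4 (5 against 224, 5.201) were among the 20 highest ratios. Their family has near-identical copies, and how the authors' counting split shared reads among them adds an uncertainty.

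The amino acid stress genes governed by ATF4 were higher in 25 of 35 and lower in 0, with a median of 1.45. Trib3, a pseudokinase that damps ATF4, stood at 2.79 CPM with IL4, 3.91 with fatostatin, 7.78 with betulin, 32.6 with 25-HC, 34.4 with PF429424 and 128 with 1,10-Phen (log2 ratio 5.47, counting interval 5.14 to 5.91). Asns, which makes asparagine, stood at 21.7 CPM with IL4, 25.1 with fatostatin, 45.01 with betulin, 116 with 25-HC, 202 with PF429424 and 183 with 1,10-Phen (log2 ratio 3.07). Trib3 was highest with 1,10-Phen, whereas Asns was higher still in another library. Chac1, which degrades glutathione, had 0.512 CPM with IL4, 0.659 to 14.6 with the other 4 compounds and 15.1 with 1,10-Phen (log2 ratio 4.64), so another compound reached nearly the same level. Atf4 itself (1.76), Atf5 (2.94), Ddit3, the gene of CHOP (1.51), and Eif4ebp1, an inhibitor of translation (2.89), were higher. Atf3 was not called (0.29). In 7 of the 35 genes the 1,10-Phen library lay at least 2-fold above the other 5, beside 30 of 45 in the HIF list and 18 of 38 in the NRF2 list. The chaperone side of the endoplasmic reticulum response was not called in most genes, with 4 of 33 higher, Ero1l among them, 1 lower and a median of -0.23. These shares were 12.1% higher and 3.03% lower, beside 7.59% and 11.8% of all compared genes.

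**Figure D4:**
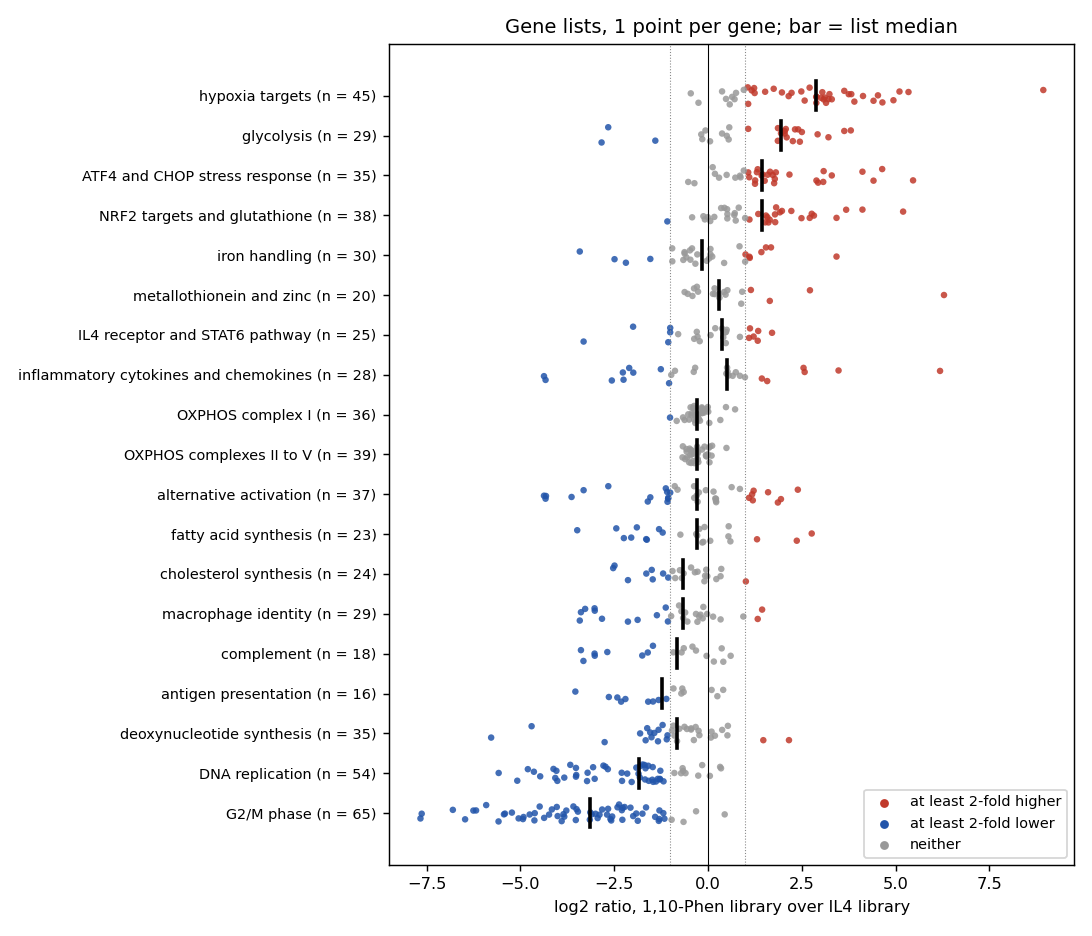
Log2 ratio of 1,10-Phen over IL4 (horizontal axis) for each compared gene of 19 lists (rows), 1 point per gene, red for called higher, blue for called lower and grey for neither, with a black bar at the list median and dotted lines at 2-fold. Medians run from 2.88 for HIF targets to -3.14 for G2/M genes, and the respiratory chain lists stay within 2-fold with 1 exception.

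Genes of cell division were lower, nearly throughout. Ccna2, the cyclin that drives S phase and entry into mitosis, stood at 117 CPM with IL4, 80.7 with fatostatin, 94.3 with betulin, 58.1 with 25-HC, 48.5 with PF429424 and 0.482 with 1,10-Phen (log2 ratio -7.66, counting interval -9.05 to -6.996). Mki67, the proliferation marker Ki-67, stood at 571 CPM with IL4, 379 with fatostatin, 451 with betulin, 323 with 25-HC, 224 with PF429424 and 5.03 with 1,10-Phen (log2 ratio -6.799, counting interval -7.13 to -6.53). All 4 other compounds lay below IL4 alone in both genes, but far above the 1,10-Phen library. Top2a, which untangles replicated DNA, had 289 CPM with IL4, 114 to 219 with the other 4 compounds and 6.695 with 1,10-Phen (log2 ratio -5.41), and Ccnb1, the mitotic cyclin, 62.1 CPM with IL4, 27.1 to 56.7 with the other 4 compounds and 1.34 with 1,10-Phen (-5.44). Pbk, a mitotic kinase, had 406 counts with IL4 and none with 1,10-Phen, at least 118-fold lower when 3 counts are taken as the limit of detection there. Of 65 G2/M genes 61 were lower and 0 higher, with a median of -3.14, and in 51 the 1,10-Phen library lay at least 2-fold below the other 5. The share of all counts in this list was 0.441% with IL4, 0.189 to 0.358% with the other 4 compounds and 0.0578% with 1,10-Phen. It was thus below IL4 alone with every compound, and lowest with 1,10-Phen.

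DNA replication genes were lower in 44 of 54, with a median of -1.83, and in 34 the library lay at least 2-fold below the other 5. Cdc6, which loads the replicative helicase onto origins, had 19.8 CPM with IL4, 14.7 to 20.7 with the other 4 compounds and 0.321 with 1,10-Phen (log2 ratio -5.58). Mcm5, a subunit of that helicase, stood at 116 CPM with IL4, 97.4 with fatostatin, 111 with betulin, 83.9 with 25-HC, 70.6 with PF429424 and 4.07 with 1,10-Phen (log2 ratio -4.8, counting interval -5.18 to -4.503). Pole, the leading strand polymerase, had -5.08, and Uhrf1, which carries DNA methylation to the new strand, -4.64. The other 10 of the 54 were not called. Pcna, the sliding clamp, was not called, at 344 CPM with IL4, 317 to 398 with the other 4 compounds and 309.5 with 1,10-Phen (log2 ratio -0.15). Dnmt1, the methyltransferase, was not called either (-0.598). In deoxynucleotide synthesis 14 of 35 were lower and 2 higher, with a median of -0.82. Rrm2, the regulated subunit of ribonucleotide reductase and an iron enzyme, stood at 84.5 CPM with IL4, 59.4 with fatostatin, 72.4 with betulin, 56.4 with 25-HC, 46.8 with PF429424 and 1.45 with 1,10-Phen (log2 ratio -5.78, counting interval -6.47 to -5.32). Its partner Rrm1 (-2.75) and the thymidine kinase Tk1 (-4.7) were lower, while Adss, in AMP synthesis, was higher (2.16). In the homologous recombination and Fanconi list 20 of 37 were lower and 1 higher.

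Of 36 cyclins, cyclin-dependent kinases and their inhibitors 14 were lower and 3 higher, with a median of -0.705. The repressors E2f7 (-6.61) and E2f8 (-4.04), themselves E2F targets, were lower. Myc had 70.5 CPM with IL4, 81.2 to 97.8 with the other 4 compounds and 109 with 1,10-Phen and was not called. Among p53 targets Gadd45a (3.18), Ddit4 (3.08) and Mdm2 (1.43) were higher and Sesn1 (-2.24) and Btg2 (-2.04) lower, 7 and 4 of 30. Clustered histone genes went against the replication genes, with 5 of the 9 compared genes higher, Hist1h1c at 6.43 CPM with IL4, 6.94 to 9.28 with the other 4 compounds and 66.95 with 1,10-Phen (3.36) and Hist1h2bc at 2.14. Only 9 of 41 listed histone genes reached the level to be compared, and near-identical copies make each uncertain. Without the CPM limit, 10 of 35 were higher and 3 lower, and the median was 0.64 in place of 1.71. Apoptosis genes were called in 2 higher and 2 lower of 37.

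The IL4 program was split by gene. Arg1, arginase 1, stood at 3573 CPM with IL4, 5169.7 with fatostatin, 3297 with betulin, 2071 with 25-HC, 1984 with PF429424 and 8180.3 with 1,10-Phen (log2 ratio 1.195, counting interval 1.18 to 1.21). Chil3, a chitinase-like protein, stood at 3206 CPM with IL4, 5199.6 with fatostatin, 2792 with betulin, 1653 with 25-HC, 4557 with PF429424 and 9733 with 1,10-Phen (log2 ratio 1.602, counting interval 1.59 to 1.61). Both were highest with 1,10-Phen. Retnla, a resistin-like protein, stood at 471 CPM with IL4, 318 with fatostatin, 147 with betulin, 15.3 with 25-HC, 10.9 with PF429424 and 23.5 with 1,10-Phen (log2 ratio -4.32, counting interval -4.46 to -4.18), and it was low with 25-HC and PF429424 also. Ccl22, a chemokine for T cells, stood at 59.9 CPM with IL4, 60.3 with fatostatin, 33.9 with betulin, 37.7 with 25-HC, 43.4 with PF429424 and 2.89 with 1,10-Phen (log2 ratio -4.33, counting interval -4.79 to -3.98), the lowest of the 6. Ccl24, a chemokine for eosinophils, had 15.2 CPM with IL4, 0.774 to 17.4 with the other 4 compounds and 0.643 with 1,10-Phen (log2 ratio -4.37), and Mrc1, the mannose receptor, 2071 CPM with IL4, 472 to 2479 with the other 4 compounds and 951 with 1,10-Phen (-1.12). Clec10a, a galactose lectin, was higher (1.95), as was Ch25h, which makes 25-hydroxycholesterol, at 4.66 CPM with IL4, 4.46 to 7.76 with the other 4 compounds and 24.9 with 1,10-Phen (2.395). Chil4 was higher as well (1.86), but is a close copy of Chil3. Of 37 such genes 8 were higher and 14 lower, with a median of -0.3. Irf4, a transcription factor that IL4 induces, stood at 85.04 CPM with IL4, 70.4 with fatostatin, 56.6 with betulin, 39.3 with 25-HC, 56.1 with PF429424 and 8.46 with 1,10-Phen (log2 ratio -3.31, counting interval -3.57 to -3.09), the lowest of the 6. The receptor gene Il4ra was higher, with 93.98 CPM with IL4, 70.6 to 91.8 with the other 4 compounds and 201 with 1,10-Phen (1.09), and Stat6 had 263 CPM with IL4, 250.4 to 287 with the other 4 compounds and 342 with 1,10-Phen and was not called. Socs1, an inhibitor of the receptor's kinases, was higher (1.34), and the phosphatase gene Ptpn6 lower (-1.995).

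**Figure D5:**
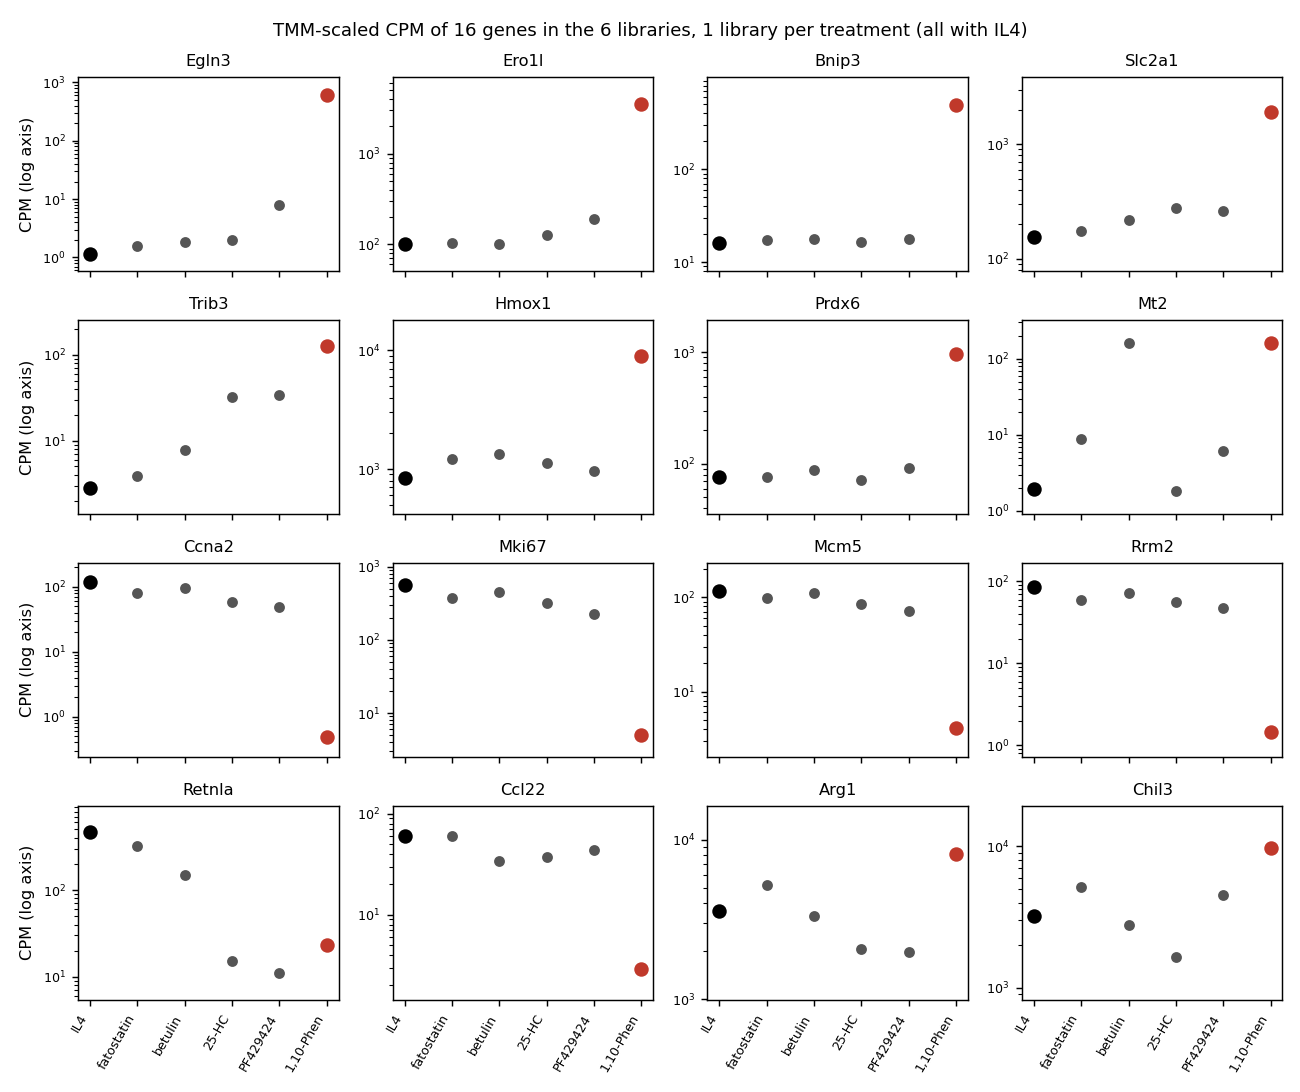
TMM-scaled CPM (vertical axes, log scale, each panel with its own range) of 16 genes in the 6 libraries (horizontal axis), 1 point per library, black for IL4 alone, red for 1,10-Phen and grey for the other 4 compounds. The red point stands alone above or below the others in most panels, while in Mt2 the betulin library and in Retnla the 25-HC and PF429424 libraries lie near or beyond it.

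Cholesterol synthesis genes, which SREBP2 governs, were lower in 8 of 24 and higher in 1, with a median of -0.67. Idi1, in the isoprenoid steps, had a log2 ratio of -2.49, and Fdps had 18.8 CPM with IL4, 12.98 to 24.8 with the other 4 compounds and 5.95 with 1,10-Phen (-1.64). Stard4, a sterol carrier, was at 17.5 CPM with IL4, 4.78 to 13.2 with the other 4 compounds and 3.91 with 1,10-Phen (-2.13). Srebf2 (83.9 against 79.6 CPM) and Srebf1 (67.7 against 114 CPM), the genes of the SREBP factors, were not called. Sqle, which oxidises squalene, was the gene called higher (1.01). Of 19 genes of the SREBP machinery and its close targets 3 were lower (15.8%, beside 11.8% of all compared genes) and 0 higher. The median of this list was above 0, at 0.353, or 0.112 with library totals, and 13 of the 19 ratios were above 0. The 3 lower genes were Stard4, Fads1 (-1.65) and Fads2, which had 21 counts with IL4 and none with 1,10-Phen, at least 6.09-fold lower. In fatty acid synthesis 9 of 23 were lower and 3 higher, among them Me1, which makes NADPH (2.77), and the desaturase Scd2 (25.9 CPM with IL4, 10.9 to 659 with the other 4 compounds and 134 with 1,10-Phen). Nr1h3, the gene of the sterol sensor LXR alpha, was lower (-2.15), and the exporter Abca1 had 36.1 CPM with IL4, 5.56 to 603 with the other 4 compounds and 53.9 with 1,10-Phen and was not called.

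Several genes by which macrophages are known were lower. The C1q chains, which start the classical complement pathway, stood at 379.6 CPM with IL4, 64.3 to 253 with the other 4 compounds and 36.3 with 1,10-Phen for C1qa (-3.38), 996 CPM with IL4, 242 to 785 with the other 4 compounds and 123 with 1,10-Phen for C1qb (-3.02) and 785 CPM with IL4, 188 to 635 with the other 4 compounds and 96.5 with 1,10-Phen for C1qc (-3.02). All 3 were below every other library. Mertk, a receptor for dying cells, had 85.2 CPM with IL4, 39.7 to 105 with the other 4 compounds and 11.9 with 1,10-Phen (-2.82), and Axl, its relative, 184 CPM with IL4, 79.7 to 176 with the other 4 compounds and 21.7 with 1,10-Phen (-3.07). Cd36, a scavenger receptor, was higher, with 2426 CPM with IL4, 3276 to 4294 with the other 4 compounds and 6598 with 1,10-Phen (1.44). Of 29 macrophage identity genes 11 were lower and 2 higher, and of 18 complement genes 8 were lower and 0 higher. Ciita, the master regulator of MHC class II, had 9.08 CPM with IL4, 1.14 to 3.704 with the other 4 compounds and 0.696 with 1,10-Phen (-3.53), H2-Aa 29.6 CPM with IL4, 9.43 to 15.3 with the other 4 compounds and 4.66 with 1,10-Phen (-2.64), and Cd74, the chain that guides class II, -1.32. In antigen presentation 9 of 16 were lower and 0 higher. Few of these genes lay at least 2-fold below the other 5 libraries. They were 2 of 16 in antigen presentation, 2 of 18 in complement and 2 of 29 in macrophage identity. Against the median of the other 5 libraries, the antigen presentation median went from -1.21 to -0.547. That of macrophage identity went from -0.662 to -0.324. Markers of neighbouring cell types moved beside these genes. Of 11 neutrophil markers 8 were lower, but their sum was 739 CPM with IL4, 380.1 to 797 with the other 4 and 866 with 1,10-Phen, because Mmp8 made up most of it; Ly6g, a defining marker, had 5 counts with IL4 and 0 with 1,10-Phen. The 6 osteoclast markers summed to 263 CPM with IL4, 264 to 341 with the other 4 and 95.1 with 1,10-Phen, with 3 lower, and Calcr had 1 count and 0. Their part in these results was not tested.

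Secreted inflammatory and matrix genes went both ways. Ptgs2, the inducible enzyme of prostaglandin synthesis, stood at 2.84 CPM with IL4, 2.68 with fatostatin, 5.205 with betulin, 8.697 with 25-HC, 5.91 with PF429424 and 214 with 1,10-Phen (log2 ratio 6.18, counting interval 5.87 to 6.62). Hpgd, which destroys prostaglandins, was lower, with 24.5 CPM with IL4, 1.05 to 12.05 with the other 4 compounds and 0.911 with 1,10-Phen (-4.61), and the 25-HC library lay near the same level. Pla2g4a, which frees arachidonic acid, was higher (1.797), and Alox5, which starts leukotriene synthesis, lower (-2.52). The chemokines Ccl3 (-2.56) and Ccl9 (-2.27) were lower, and of 28 inflammatory genes 6 were higher and 9 lower. Among chemoattractant receptors 9 of 26 were lower and 1 higher, with Ccr2 at 38.1 CPM with IL4, 5.81 to 17.6 with the other 4 compounds and 8.62 with 1,10-Phen (-2.13), and among interferon-stimulated genes 8 of 33 were lower and 2 higher. Mmp13, a collagenase, stood at 442 CPM with IL4, 630.3 with fatostatin, 937 with betulin, 1778 with 25-HC, 1392 with PF429424 and 6292 with 1,10-Phen (log2 ratio 3.83, counting interval 3.801 to 3.86). Mmp12, the macrophage elastase, had 7019 CPM with IL4, 7650.5 to 17641 with the other 4 compounds and 18413 with 1,10-Phen (1.39), close to the highest of the others, and Mmp10, a stromelysin, 0.885 CPM with IL4, 0.518 to 1.48 with the other 4 compounds and 38.3 with 1,10-Phen (5.29). Timp2, an inhibitor of these proteases (-2.32), and Plau, urokinase (-1.67), were lower.

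Some groups held few called genes or none. No gene was called among 71 mitochondrial ribosomal protein genes, 33 proteasome genes and 46 ribosome biogenesis genes. Of 72 cytosolic ribosomal protein genes 1 was called, Rpl3, lower (-1.55), and the list's median of 0.104 became -0.137 with library totals and -0.138 with log2(FPKM + 1), so its direction is set by the scaling. Actb, the cytoskeletal actin, had -0.36, and Tbp, a subunit of the general transcription machinery, 0.11. Lysosomal genes were lower in 5 of 50 (10%), near the 11.8% of all compared genes, and higher in 0, beside 7.59% of all.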

How the data were processed

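The 6 libraries, 1 for each treatment, were read from the authors' deposited tables. These give estimated counts and FPKM per gene, per the file headers; 30.5 to 32% of the deposited count values were not whole, and all were rounded. RSEM 1.2.12, HISAT2, Bowtie2 and DESeq2 are listed in the submitters' processing notes. The build, the strand setting and each tool's role are not given in the sources used here. Counts were scaled by TMM over the 6 libraries (edgeR 4.0.16, R 4.3.3). Genes with 1 CPM by library total in at least 1 library were kept, and printed CPM are TMM-scaled. A ratio used a prior count of 2, and intervals are exact Clopper-Pearson at 95%. The ratio and its interval were tested on simulated data. No test between treatments was run, as each has 1 library. A count of 0 was set to a floor of 3 counts for lower bounds. FPKM from the deposited tables served for levels between genes.

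Named genes are the 20 largest ratios in each direction, for genes that had 50 counts and 5 CPM or more in either library and an interval leaving out 0, the 6 largest per list, all compared members of the HIF factor, HIF target, iron, zinc and SREBP lists, the 10 highest FPKM, and a set fixed by name; a few list members outside this rule (such as Pcna and Atf4) were named after their values were seen, and a few genes of these lists are not reported here. Of the gene IDs, 16651 of 16775 matched the RefSeq table. Promoter windows are RefSeq's, GRCm38.p6. The comparison and the lists were chosen with earlier results of these data known, and the last 2 motifs were added after seeing them. Alternatives were DESeq2 1.42.0 size factors, library totals, other filters and prior counts, log2(FPKM + 1), and the median of the other 5 libraries as reference.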

Additional observations from a re-analysis of the deposited data

How the results depend on the processing

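Against 903 genes higher and 1408 lower, other settings gave 641 to 1085 higher and 1101 to 1940 lower, except that log2(FPKM + 1) gave 399 higher; there the added 1 shrinks the ratios of low genes, and the median of all genes was -0.195. Library totals placed that median at -0.25. With the median of the other 5 libraries as reference, 801 were higher and 1235 lower, and 671 and 1060 of these were also among the 903 and 1408. The medians of the HIF target, glycolysis, DNA replication, cholesterol synthesis and alternative activation lists kept their direction under all 9 alternatives. The median of cytosolic ribosomal proteins, 0.104, was -0.137 with library totals and -0.138 with log2(FPKM + 1), and Bhlhe41 was at -0.019 against the median of the other 5 libraries. Of the other 53 lists, 443 of 477 values stayed inside the interval of the list's median, 32 moved outside it, and the 2 values of the ribosomal protein list above changed sign where the interval left out 0. Whatever the interval, 34 of the values, in 19 lists, had the opposite sign to the main median, 11 of them against the median of the other 5 libraries, 8 with library totals and 8 with log2(FPKM + 1). Ribosome biogenesis went from 0.108 to -0.267, inflammatory cytokines and chemokines from 0.499 to -0.39, prostaglandin and leukotriene enzymes from -0.406 to 0.282 (each against the other 5 libraries) and the proteasome from 0.192 to -0.049 (library totals). Of 435 named genes under 7 settings, 2161 of 3045 values stayed within the counting interval and 883 moved outside it. The remaining 1, that of Bhlhe41, was the only change of sign in a called gene. Sign changes of genes not called were not counted apart, so the 2161 and 883 values may include some. No paired analysis was possible because each treatment has 1 library, and no replicate could be left out for the same reason. Depth, at 20181396 and 20742358 counts, places the floor of 3 counts at 0.14 to 0.161 CPM in the 2 libraries.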

Other observations

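Of the genes called, 707 higher and 1096 lower were in none of the 58 gene lists. Among the 20 highest ratios, 10 were in no list. Mgarp, a mitochondrial protein, had no count with IL4, 0.0469 to 0.246 CPM with the other 4 compounds and 243 counts with 1,10-Phen, at least 93.2-fold higher over the 3 counts taken as its detection limit. Esam, an adhesion molecule of endothelial cells and platelets, had 2 counts with IL4 and 270 with 1,10-Phen (log2 ratio 6.27, counting interval 5.41 to 10.33). Notch4, a receptor best known from vessels, had 1.44 CPM with IL4, 0.706 to 2.46 with the other 4 compounds and 45.7 with 1,10-Phen (log2 ratio 4.896), and Sema3c, a secreted guidance protein, 0.885 CPM with IL4, 0.753 to 3.28 with the other 4 compounds and 25.98 with 1,10-Phen (4.73). Gpat3, which adds a fatty acid to glycerol phosphate, had 0.326 CPM with IL4, 0.235 to 0.729 with the other 4 compounds and 18.9 with 1,10-Phen (5.49), and Serpinb9b, a member of a family with near-identical copies, 4.797 CPM with IL4, 6.92 to 16.6 with the other 4 compounds and 223 with 1,10-Phen (5.51). Dnmt3l, a partner of the DNA methyltransferases in germ cells, had 4 against 164 counts (4.97), and Rnf183, a ubiquitin ligase, 1 against 103 (log2 ratio 5.299, counting interval 4.38 to 12.21).

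Gm20594, a predicted gene, was among the 10 highest FPKM with 1,10-Phen at 5266 against 115 with IL4. It stood at 32.6 CPM with IL4, 29.6 with fatostatin, 33.3 with betulin, 26.1 with 25-HC, 64.6 with PF429424 and 1772 with 1,10-Phen (log2 ratio 5.76, counting interval 5.66 to 5.87), far above the other 5 libraries. Among the 20 lowest, 7 were in no list. Ankle1, an endonuclease, had 192 counts with IL4 and none with 1,10-Phen, at least 55.6-fold lower, and Neil3, a DNA glycosylase, 409 against 2 (log2 ratio -6.56, counting interval -10.53 to -5.61). Zfp966, in a family of zinc finger copies, had 244 counts with IL4 and none with 1,10-Phen, at least 70.7-fold lower, but it was at 0 in at least 1 of the other 4 libraries too and ranged up to 19.6 CPM there.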
